A study of Mus musculus with 18 samples.

Results

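The 32 genes described here encode the Polycomb repressive complexes PRC1 and PRC2 and the demethylases that remove the PRC2 mark. They were chosen by name, with earlier results of these data known. Of the 20792 genes on the larger of the 2 arrays used 32 are members, and of the 13231 on the smaller one 28 are. Kdm6b, Pcgf3, Pcgf5 and Phc3 were measured on the larger array alone. RNA of CD4 T cells from mice of 6 to 8 weeks, enriched on beads and double sorted on GFP, was hybridised to 18 arrays. Regulatory T cells (Treg) suppress immune responses, and effector T cells (Teff) are the CD4 cells sorted beside them. The Foxp3DTR strain, in which cells that use the Foxp3 gene carry the receptor of diphtheria toxin (DT), gave 5 Treg arrays (aTreg in the titles) and 5 Teff arrays after DT treatment, all of spleen and lymph node cells. The Foxp3GFP strain, whose Foxp3 cells carry GFP, gave 2 arrays each of Treg and Teff from the tumour B16, a melanoma line, and 2 each from spleen with lymph nodes (spleen below). The labels do not say whether replicates came from separate animals, so p-values measure the spread between these samples, which may be technical. In such bulk RNA, fewer cells of a type and less RNA per cell cannot be told apart.

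PRC2 places methyl groups on lysine 27 of histone H3 (H3K27) through its catalytic subunit, EZH1 or EZH2, which needs EED and SUZ12. PRC1 places ubiquitin on histone H2A through RING1 or RNF2 paired with a PCGF protein. Canonical PRC1 reads the PRC2 mark through a CBX subunit, while variant PRC1 holds RYBP or YAF2. KDM6A and KDM6B remove the H3K27 mark. In T cells the system is known for holding helper cell genes silent, and EZH2 is known to be needed by activated Treg cells.

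Values are log2 expression values, on which a difference of 1 is a 2-fold difference, and each difference is given with its standard error (SE). A gene is said to rise or fall where limma's adjusted p, taken over all genes of the table, was under 0.05. The tables of the 10 DT arrays and of the other 8 arrays were normalized separately, so levels are never compared between them. The arrays' medians lay within 4.05 to 4.14 and within 5.87 to 5.9. Foxp3, which defines Treg cells, did not follow the labels in 2 settings by the probe set that stands for it. It lay at 3.11 to 3.43 on the arrays labelled Treg and 2.97 to 3.40 on the Teff arrays of DT-treated mice, at 3.20 and 3.30 on the arrays labelled Treg and 3.18 and 3.13 on the Teff arrays of the tumour, and at 9.99 and 9.95 on the Treg arrays and 3.19 and 3.05 on the Teff arrays of spleen. Of 7 Treg marker genes with Foxp3 among them, 6, 5 and 7 were higher on the arrays labelled Treg of DT-treated mice, tumour and spleen. Treg below means the libraries so labelled. Cd4 lay at 7.70 to 7.94 in Treg and 7.86 to 8.40 in Teff of DT-treated mice, and Cd3e of the T cell receptor at 10.28 to 10.68 and 10.08 to 10.73. On the arrays of the Foxp3GFP strain Cd3e lay at 10.17 and 10.40 in tumour Treg, 9.84 and 10.14 in tumour Teff, and 10.29 to 10.55 in spleen. Cd4 lay at 8.13 and 8.17 in tumour Treg and 8.34 and 8.27 in tumour Teff. Of 5 T cell markers 2 were higher and 0 lower in tumour Treg than in tumour Teff. Their summed linear level was 14341 to 16218 in tumour Treg and 11520 to 13495 in tumour Teff. In DT-treated mice Treg array 4 and Teff arrays 4 and 5 stood apart, with a mean correlation with their own group of 0.981, 0.972 and 0.977, where the other arrays had 0.986 to 0.992. The globin gene Hba-a1 lay at 8.37 on Treg array 4 and 7.37 on Teff array 4, and between 3.21 and 4.44 on the other arrays of DT-treated mice.

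The promoters of Ezh2, Ezh1 and Kdm2b, on which the results below turn, are shown as RefSeq windows of build GRCm38.p6, 250 bases before to 50 after the start, with the strand of the gene. 4 motifs were searched on both strands: TTTNNCGC, TTCCCGCC and GCGCCAAA, written for E2F factors of the cell cycle, and TGTTTAC, written for forkhead factors. GCGCCAAA read on the other strand is one form of TTTNNCGC. Capitals mark a match. The windows are Ezh2 at chr6:47594981-47595280 (minus strand), Ezh1 at chr11:101226414-101226713 (minus strand) and Kdm2b at chr5:122989050-122989349 (minus strand), the last being the 1 of 4 Kdm2b windows with a match, taken after the matches were seen.
Ezh2: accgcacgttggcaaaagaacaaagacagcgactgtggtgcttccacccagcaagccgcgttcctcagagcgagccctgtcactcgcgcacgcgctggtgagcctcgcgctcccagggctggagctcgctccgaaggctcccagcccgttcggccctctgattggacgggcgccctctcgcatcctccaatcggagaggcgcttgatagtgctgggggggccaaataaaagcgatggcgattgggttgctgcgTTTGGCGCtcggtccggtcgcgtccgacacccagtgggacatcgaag
Ezh1: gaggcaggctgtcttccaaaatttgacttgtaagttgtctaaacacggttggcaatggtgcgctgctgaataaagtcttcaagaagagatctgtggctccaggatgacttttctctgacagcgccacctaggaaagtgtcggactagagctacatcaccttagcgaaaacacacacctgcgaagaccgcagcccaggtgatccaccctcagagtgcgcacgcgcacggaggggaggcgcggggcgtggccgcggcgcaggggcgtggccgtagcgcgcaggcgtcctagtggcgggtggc
Kdm2b: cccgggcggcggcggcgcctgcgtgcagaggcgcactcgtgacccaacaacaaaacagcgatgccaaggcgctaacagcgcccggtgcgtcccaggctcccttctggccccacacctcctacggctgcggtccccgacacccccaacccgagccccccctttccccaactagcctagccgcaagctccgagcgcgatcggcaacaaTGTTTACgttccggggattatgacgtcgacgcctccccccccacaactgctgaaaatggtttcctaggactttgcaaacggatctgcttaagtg
The Ezh2 window holds TTTGGCGC from base 4 after the start, the Ezh1 window holds no match, and the Kdm2b window holds TGTTTAC from base -44. Of the 27 members with a window, 3 (Ezh2, Suz12 and Phf19) held TTTNNCGC, or 11.1%, against 5.93% of all 27025 genes with windows and 30.8% of 26 cell cycle genes, and 3 (Eed, Pcgf5 and Kdm2b) held TGTTTAC, or 11.1%, against 4.05%. TTCCCGCC was in 2 members (Scmh1 and Pcgf5), or 7.41%, against 2.52% of all genes, and GCGCCAAA in 1 (Ezh2), or 3.70%, against 0.585%. A match describes letters and is not a bound site.

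Across the members, some passed between Treg and Teff in each setting, upward as well as downward. In DT-treated mice 5 of the 32 members passed, or 15.6%, where 10.5% of all genes passed. Of these 2 rose and 3 fell in Treg, where 5.96% of all genes rose and 4.56% fell. In the tumour 11 of 28 passed, or 39.3%, where 25.5% of all genes passed. Of these 6 rose and 5 fell, where 14% of all genes rose and 11.5% fell. In spleen 6 of 28 passed, or 21.4%, where 13.8% of all genes passed. Of these 5 rose and 1 fell, where 7.44% of all genes rose and 6.4% fell. The members' share was above that of all genes in each setting. Without the 3 DT arrays that stood apart, 8 members passed: Ezh2 (0.60), Ezh1 (-0.47), Phc1 (0.73) and Scmh1 (-0.76) again, with adjusted p = 0.0172, 0.039, 0.00117 and 0.00685, and Bmi1, Cbx2, Phc2 and Rnf2, while Cbx7 did not (-0.32, adjusted p = 0.115).

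Most members are bright genes, which pass more often. The genes brighter than the median held 30 of the members on the larger array and 21 on the smaller one. Among them 13.3% of members and 19.1% of all genes passed in DT-treated mice, 52.4% and 48.2% in the tumour, and 33.3% and 28.6% in spleen. Among these brighter genes the members' share was thus below that of all genes in DT-treated mice and somewhat above it in tumour and spleen. Brightness was not matched more closely than by this cut, and its part in the shares was not tested. The median difference of the members was -0.030, 0.0068 and 0.019 in the 3 settings, against 0.028, 0.0088 and -0.0027 for all genes.

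Between tumour and spleen, 12 of 28 members passed in Treg, or 42.9%, where 23.6% of all genes passed, and 8 of 28 in Teff, or 28.6%, where 15.8% of all genes passed. In Treg 5 rose and 7 fell, where 11.4% of all genes rose and 12.2% fell. In Teff 3 rose and 5 fell, where 7.6% of all genes rose and 8.2% fell. Among genes brighter than the median these shares were 61.9% of members and 45.2% of all genes in Treg, and 42.9% and 33.7% in Teff. With 2 arrays a group most genes show no overlap: groups were apart for 20 members in the tumour and 18 in spleen, where 60.9% and 54.2% of all genes were, and for 20 members in Treg and 18 in Teff between tumour and spleen, where 60.2% and 57.9% were. In all, 17 members passed at least once and 15 never did, and 4 of these 15 were measured in DT-treated mice alone. The share of all genes that passed at least once was not counted, so 17 cannot be read as many or few.

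**Figure D1:**
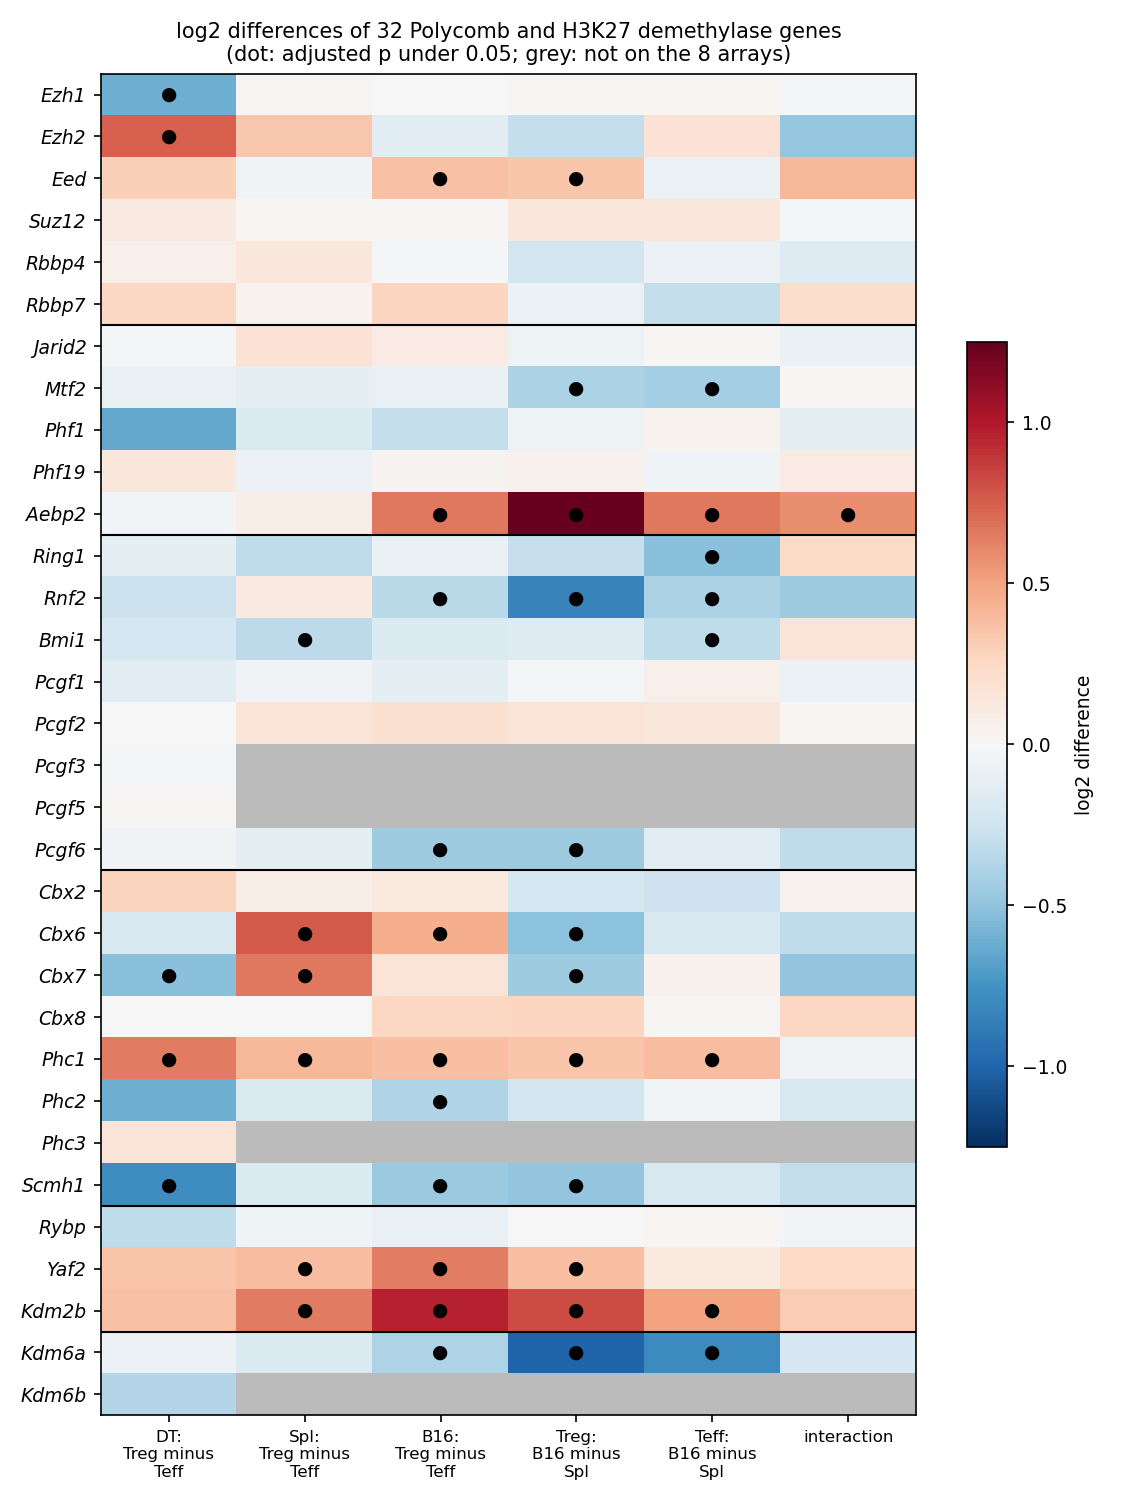
Colour gives the log2 difference of each member (rows, in order of role) in the 6 comparisons (columns), red for higher and blue for lower in the first-named group, with a dot where limma's adjusted p was under 0.05 and grey where the gene was not measured. Phc1 is red in all 5 comparisons of 2 groups, and Kdm6a reaches -1.0 in Treg of the tumour against spleen.

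The catalytic subunits of PRC2 moved in opposite directions in DT-treated mice. Ezh2, the methyltransferase of dividing cells, lay at 9.43, 9.34, 9.70, 9.79 and 9.05 on the Treg arrays and at 8.77, 8.53, 9.05, 9.17 and 8.06 on the Teff arrays. Its highest Teff array lay within the range of the Treg arrays, and the other Teff arrays lay below it. Ezh1, its relative in resting cells, lay at 8.25, 8.37, 7.83, 7.68 and 8.27 on the Treg arrays and at 8.70, 8.83, 8.41, 8.83 and 8.68 on the Teff arrays, with no overlap. Ezh2 rose by 0.74 (SE 0.205, adjusted p = 0.0341) and Ezh1 differed by -0.61 (SE 0.147, adjusted p = 0.0171). Exact two-sided permutation over all splits of the 10 arrays gave p = 0.0159 for Ezh2 and p = 0.00794, the smallest these splits can give, for Ezh1. In the fit without a replicate block both calls rest on few arrays. Without 1 array the adjusted p reached 0.0955 for Ezh2, which lost its call without any 1 of 6 arrays (Treg 1 to 4, Teff 1 and 2). For Ezh1 it reached 0.0547, and the call was lost without Treg 3 or Teff 2. With the replicate number as a block both passed by limma (adjusted p = 0.000479 for Ezh2 and 0.00639 for Ezh1). Whether the numbers pair the arrays could not be settled, as described below. The second brightest Ezh1 probe set differed by -0.14, and the mean of its probe sets by -0.22 (adjusted p = 0.172).

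In Foxp3GFP mice neither gene passed in the fit used here. Ezh2 lay at 8.79 and 8.81 in tumour Treg, 8.79 and 9.09 in tumour Teff, 9.16 and 9.04 in spleen Treg and 8.77 and 8.74 in spleen Teff. The Treg arrays of spleen lay above the Teff arrays there. The difference was 0.34 (SE 0.111, adjusted p = 0.0892), and in the tumour it was -0.14 (SE 0.111, adjusted p = 0.434). The change of that difference between tumour and spleen was -0.48 (SE 0.158, adjusted p = 0.139). Tumour Treg differed from spleen Treg by -0.30 (adjusted p = 0.0959). Ezh2 did pass in spleen and in Treg of tumour against spleen among genes brighter than the median (adjusted p = 0.0383 and 0.0431) and with trend and robust settings of eBayes (0.0292 and 0.0365), and the change passed with trend and robust settings alone (0.0475). Ezh1 lay between 8.73 and 8.96 on all 8 arrays, with a difference of -0.0029 in the tumour and 0.011 in spleen (SE 0.0971 each).

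Genes of the cell cycle moved with the difference of Ezh2 in DT-treated mice. Of 32 such genes 28 were higher in Treg of DT-treated mice, with a median difference of 1.36 and a summed level on the linear scale of 27665 to 34585 in Treg and 13103 to 19465 in Teff. 21 of 30 were higher in Treg of the tumour and 16 of 30 in Treg of spleen, and none was lower in these 3 comparisons. In the tumour they were thus higher in Treg while Ezh2 and Ezh1 did not pass. Their part in the differences of Ezh2 and Ezh1 was not tested.

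The other core subunits moved less. Eed, which reads the mark and activates the enzyme, lay at 9.94 and 10.03 in tumour Treg, 9.62 and 9.62 in tumour Teff, 9.72 and 9.56 in spleen Treg and 9.70 and 9.67 in spleen Teff. It rose by 0.37 (SE 0.0875, adjusted p = 0.0162) in Treg against Teff of the tumour and by 0.34 (SE 0.0875, adjusted p = 0.0234) in Treg of the tumour against spleen, and each call was lost without any 1 of 3 of its 4 arrays, all but tumour Treg 1 in the first and all but spleen Treg 1 in the second (adjusted p up to 0.0992 and 0.128). With the mean of its probe sets these differences were 0.032 (adjusted p = 0.881) and 0.24 (adjusted p = 0.163). Suz12, the scaffold, and the histone chaperones Rbbp4 and Rbbp7 did not pass in any comparison by the probe sets that stand for them, with differences between -0.30 and 0.26. A second Rbbp7 probe set rose in Treg against Teff of the tumour, by 0.38 (SE 0.0844, adjusted p over all probe sets = 0.0122), and so did the mean of its probe sets, by 0.32 (adjusted p = 0.0165). Among genes brighter than the median Rbbp7 passed there (0.26, adjusted p = 0.0294) and in Teff of tumour against spleen (-0.30, adjusted p = 0.0264), and Rbbp4 in Treg of tumour against spleen (-0.23, adjusted p = 0.0422). These 3 also passed with trend and robust settings (adjusted p = 0.0125, 0.0103 and 0.0209).

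Among the accessory subunits of PRC2, which guide it to DNA, Aebp2 showed the largest difference of any member by the probe sets that stand for the genes. Its brightest probe set lay at 11.13 and 11.03 in tumour Treg, 10.42 and 10.41 in tumour Teff, 9.81 and 9.86 in spleen Treg and 9.75 and 9.75 in spleen Teff. Both tumour groups were above both spleen groups. Aebp2 rose by 1.24 (SE 0.0799, adjusted p = 2.54e-05) in Treg and by 0.66 (SE 0.0799, adjusted p = 0.00136) in Teff of the tumour against spleen, and by 0.66 (SE 0.0799, adjusted p = 0.000553) in Treg against Teff of the tumour. It was the 1 member of 28, or 3.57%, whose Treg difference changed between tumour and spleen, by 0.58 (SE 0.113, adjusted p = 0.0236), where 5.8% of all genes passed, 2.83% upward and 2.98% downward. That call was lost without any array but tumour Treg 2 (adjusted p up to 0.0908), and the other calls held.

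The probe sets of Aebp2 disagreed. A dimmer probe set, singled out after its values were seen, lay at 4.89 to 5.26 in Treg and 5.95 to 6.82 in Teff of DT-treated mice. It lay at 6.78 and 6.87 in tumour Treg, 7.51 and 7.75 in tumour Teff, 6.62 and 6.78 in spleen Treg and 7.58 and 7.61 in spleen Teff. It was thus lower in Treg in every setting with no overlap, by -1.27 (SE 0.154), -0.80 (SE 0.109) and -0.89 (SE 0.109), with adjusted p over all probe sets of 0.000337, 0.00103 and 0.00114. Between tumour and spleen it differed by 0.12 in Treg and 0.034 in Teff, and did not pass. The 2 probe sets thus moved in opposite directions in the tumour. With the mean of its probe sets the Treg difference in the tumour was -0.070 (adjusted p = 0.581), and its change between tumour and spleen 0.33 (adjusted p = 0.127).

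Mtf2, a Polycomb-like protein that binds CpG-rich DNA, fell in the tumour. It lay at 8.78 and 8.78 in tumour Treg, 8.83 and 8.91 in tumour Teff, 9.17 and 9.18 in spleen Treg and 9.33 and 9.25 in spleen Teff. The difference from spleen was -0.40 (SE 0.0798, adjusted p = 0.00816) in Treg and -0.42 (SE 0.0798, adjusted p = 0.00978) in Teff, and 3 further Mtf2 probe sets were lower in tumour Treg by -0.43 to -0.48. The Teff call was lost without tumour Teff 1 or spleen Teff 1 (adjusted p up to 0.0759). By the probe sets that stand for them Jarid2, Phf1 and Phf19 did not pass, and the widest of their differences was that of Phf1 in DT-treated mice, -0.64 (SE 0.239, adjusted p = 0.125). Dimmer Jarid2 probe sets were lower in Treg of tumour against spleen, by -0.35 and -0.38 (adjusted p over all probe sets = 0.0205 and 0.0373), as was the mean of its probe sets (-0.26, adjusted p = 0.0344). A dim Phf19 probe set was higher in Treg of DT-treated mice, by 0.58 (adjusted p over all probe sets = 0.0418).

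Of the ubiquitin ligases of PRC1, Rnf2 fell in both tumour groups and Ring1 in tumour Teff. Rnf2, the main H2A ligase, lay at 9.23 and 9.20 in tumour Treg, 9.50 and 9.60 in tumour Teff, 10.05 and 10.05 in spleen Treg and 10.03 and 9.86 in spleen Teff. Both tumour groups were below both spleen groups, by -0.84 (SE 0.0899, adjusted p = 0.000356) in Treg and -0.39 (SE 0.0899, adjusted p = 0.0222) in Teff, and Treg were below Teff in the tumour by -0.34 (SE 0.0899, adjusted p = 0.0263). A second probe set of Rnf2 was lower in tumour Treg against spleen by -0.71 (SE 0.0976, adjusted p over all probe sets = 0.00133). Without single arrays the first call held (adjusted p up to 0.004), while the Teff call was lost without tumour Teff 1 or spleen Teff 1 (up to 0.146) and the call within the tumour without any 1 of its 4 arrays (up to 0.124). With the mean of probe sets these 2 differences were -0.078 (adjusted p = 0.56) and -0.15 (adjusted p = 0.204). Ring1, the other ligase, lay at 6.66 and 6.68 in tumour Treg, 6.78 and 6.72 in tumour Teff, 6.91 and 7.0 in spleen Treg and 7.18 and 7.37 in spleen Teff. It fell in Teff of the tumour, by -0.53 (SE 0.0921, adjusted p = 0.00716), a call lost without spleen Teff 2 (adjusted p = 0.0587). In Treg the difference was -0.28 (adjusted p = 0.0593), which passed with the mean of probe sets (0.0477) and among genes brighter than the median (0.0217). Between Treg and Teff of spleen it was -0.32 (adjusted p = 0.0554), which passed in these 2 settings too (0.0441 and 0.0194). Ring1 has 1 probe set, so its differences stayed the same in both settings and only the other genes of the fit changed.

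Of the PCGF partners, which set the type of PRC1, Bmi1 and Pcgf6 passed. Bmi1, of canonical PRC1, lay at 9.12 and 9.05 in tumour Treg, 9.33 and 9.18 in tumour Teff, 9.24 and 9.25 in spleen Treg and 9.56 and 9.60 in spleen Teff. The Teff arrays of spleen were highest, with a difference of -0.33 (SE 0.0857, adjusted p = 0.0382) between Treg and Teff of spleen and -0.32 (SE 0.0857, adjusted p = 0.0391) between Teff of tumour and spleen. Both calls were lost without any 1 of the 4 arrays compared (adjusted p up to 0.188 and 0.176) and in a fit of the 2 groups alone (0.0569 and 0.0814). Pcgf6, of a variant PRC1, lay at 7.91 and 7.73 in tumour Treg, 8.16 and 8.36 in tumour Teff, 8.33 and 8.20 in spleen Treg and 8.39 and 8.39 in spleen Teff. Tumour Treg were lowest, by -0.44 (SE 0.105, adjusted p = 0.0162) against tumour Teff and -0.45 (SE 0.105, adjusted p = 0.0165) against spleen Treg, and each call was lost without 1 of 2 arrays (up to 0.107 in both), tumour Teff 2 or tumour Treg 2 in the first and tumour Treg 2 or spleen Treg 1 in the second. A dimmer Pcgf6 probe set, singled out after its values were seen, was lower in Treg in DT-treated mice, tumour and spleen, by -0.91, -0.56 and -0.50 (adjusted p over all probe sets 0.0274, 0.0176 and 0.0454), where the brightest one gave -0.041 in DT-treated mice and -0.12 in spleen. Pcgf1, Pcgf2, Pcgf3 and Pcgf5 passed in none, with differences between -0.14 and 0.19.

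Phc1, a polyhomeotic protein that links canonical PRC1 complexes to each other, was the 1 member that passed, upward, in Treg against Teff in all 3 settings. In DT-treated mice it lay at 7.83, 7.86, 7.54, 7.44 and 7.66 on the Treg arrays and at 6.98, 7.21, 6.80, 6.80 and 7.31 on the Teff arrays, with no overlap. Ezh1 and Phc1 were the 2 members of 32 without overlap in these mice, where 9.46% of all genes had none. Phc1 lay at 8.19 and 8.27 in tumour Treg, 7.95 and 7.77 in tumour Teff, 7.93 and 7.84 in spleen Treg and 7.42 and 7.53 in spleen Teff. It rose by 0.65 (SE 0.131, adjusted p = 0.00582) in Treg of DT-treated mice, 0.37 (SE 0.0952, adjusted p = 0.0213) in the tumour and 0.41 (SE 0.0952, adjusted p = 0.0233) in spleen. It also rose in the tumour against spleen, by 0.35 in Treg and 0.39 in Teff (SE 0.0952, adjusted p = 0.0317 and 0.0295). The call in DT-treated mice held without each array (adjusted p up to 0.021), while the others rest on single arrays (up to 0.165). They were lost without any of the 4 arrays compared in spleen and between Treg of tumour and spleen, without any but tumour Teff 1 in the tumour, and without any but tumour Teff 2 between Teff of tumour and spleen.

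The other subunits of canonical PRC1 differed between settings. Cbx6 lay at 8.23 and 8.19 in tumour Treg, 7.69 and 7.83 in tumour Teff, 8.70 and 8.75 in spleen Treg and 8.01 and 7.91 in spleen Teff. It rose in Treg by 0.45 (SE 0.0872, adjusted p = 0.00608) in the tumour and 0.77 (SE 0.0872, adjusted p = 0.000753) in spleen, and was lower in tumour Treg than in spleen Treg by -0.52 (SE 0.0872, adjusted p = 0.00359). These 3 calls held without each array. In DT-treated mice it differed by -0.20 (SE 0.201, adjusted p = 0.672), and array 4 of both groups lay apart, at 6.95 in Treg and 8.37 in Teff.

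Cbx7, another reader of the H3K27 mark, rose in Treg of spleen and fell in Treg of DT-treated mice, on different probe sets. It lay at 6.24 and 6.07 in tumour Treg, 5.88 and 6.11 in tumour Teff, 6.70 and 6.50 in spleen Treg and 5.84 and 6.04 in spleen Teff. The Treg arrays of spleen were highest, by 0.66 (SE 0.125, adjusted p = 0.00991) against spleen Teff, and tumour Treg were below them by -0.44 (SE 0.125, adjusted p = 0.036). These calls were lost without spleen Treg 1 or spleen Teff 1, and without any array but spleen Treg 2 (adjusted p up to 0.0779 and 0.181). With the mean of probe sets the differences were 0.19 (adjusted p = 0.247) and -0.077 (adjusted p = 0.625). In DT-treated mice it lay at 7.56, 7.28, 7.16, 7.25 and 7.49 in Treg and at 7.87, 7.71, 7.50, 8.35 and 7.91 in Teff, with overlap and a difference of -0.52 (SE 0.149, adjusted p = 0.0428). On the probe set shared with the other array the difference in DT-treated mice was 0.36 (adjusted p = 0.116), and the call was lost without any array but Teff 3 (up to 0.118) and with the mean of probe sets, at -0.047 (adjusted p = 0.859).

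Scmh1, a dim gene at percentile 42.9 of the larger array, lay at 3.80, 4.24, 3.84, 3.43 and 3.40 in Treg and at 4.59, 4.80, 4.36, 4.09 and 4.75 in Teff of DT-treated mice. The highest Treg array lay above the lowest Teff array, and the difference was -0.77 (SE 0.179, adjusted p = 0.0137), held without each array (up to 0.0425). In the other mice it lay at 4.37 and 4.52 in tumour Treg, 5.02 and 4.80 in tumour Teff, 4.94 and 4.94 in spleen Treg and 5.01 and 5.21 in spleen Teff. Tumour Treg were lowest, by -0.46 against tumour Teff and -0.50 against spleen Treg (SE 0.113, adjusted p = 0.0178 and 0.0143), and these calls were lost without tumour Treg 1 or tumour Teff 1, and without any array but tumour Treg 2 (up to 0.111 and 0.0947). Phc2 lay at 8.16 and 8.16 in tumour Treg, 8.45 and 8.63 in tumour Teff, 8.5 and 8.28 in spleen Treg and 8.57 and 8.57 in spleen Teff, with a difference of -0.38 (SE 0.104, adjusted p = 0.0294) within the tumour, lost without any array but tumour Teff 1 (up to 0.153). In DT-treated mice it differed by -0.62 (SE 0.202, adjusted p = 0.0775). Cbx2, Cbx8 and Phc3 passed in no comparison, with differences between -0.26 and 0.27.

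**Figure D2:**
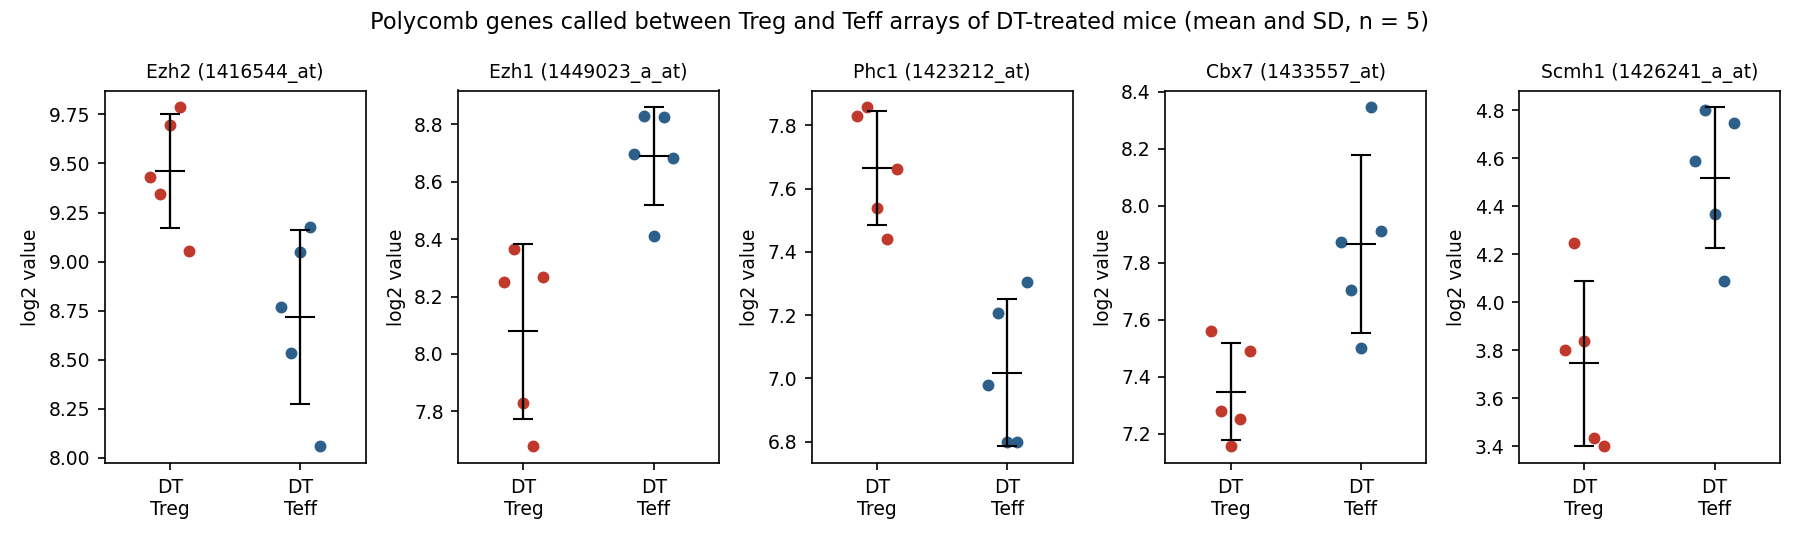
Points are log2 values of the 5 Treg and 5 Teff arrays of DT-treated mice for the 5 members that passed, with mean and SD, each panel on its own axis. The groups separate for Ezh1 and Phc1 and overlap for Ezh2, Cbx7 and Scmh1.

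In variant PRC1, Kdm2b and Yaf2 rose in Treg. Kdm2b, which brings a variant PRC1 to unmethylated CpG islands, lay at 10.39 and 10.37 in tumour Treg, 9.32 and 9.51 in tumour Teff, 9.63 and 9.49 in spleen Treg and 8.98 and 8.84 in spleen Teff. Treg were above Teff in both tissues, by 0.96 (SE 0.1, adjusted p = 0.000249) in the tumour and 0.65 (SE 0.1, adjusted p = 0.00355) in spleen. Tumour was above spleen by 0.82 (SE 0.1, adjusted p = 0.000697) in Treg and 0.50 (SE 0.1, adjusted p = 0.0123) in Teff, and the last call alone was lost without an array (tumour Teff 2 or spleen Teff 2, adjusted p up to 0.0932). In DT-treated mice another probe set differed by 0.37 (SE 0.145, adjusted p = 0.152). The change of the Treg difference between tumour and spleen was 0.32 (SE 0.142, adjusted p = 0.279).

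Yaf2 lay at 9.67 and 9.66 in tumour Treg, 9.03 and 9.03 in tumour Teff, 9.24 and 9.35 in spleen Treg and 8.88 and 8.93 in spleen Teff. It rose in Treg by 0.64 (SE 0.0814, adjusted p = 0.000765) in the tumour and 0.38 (SE 0.0814, adjusted p = 0.0163) in spleen, and in Treg of tumour against spleen by 0.37 (SE 0.0814, adjusted p = 0.0118). The first call held without each array, and the others were lost without any array but spleen Treg 1 and without any but spleen Treg 2 (up to 0.104 and 0.0651). In DT-treated mice it differed by 0.35 (SE 0.145, adjusted p = 0.186). A second Yaf2 probe set gave 0.65 in the tumour and 0.37 between Treg of tumour and spleen, both called over all probe sets. Rybp, its relative, passed in no comparison, with differences between -0.31 and 0.029.

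**Figure D3:**
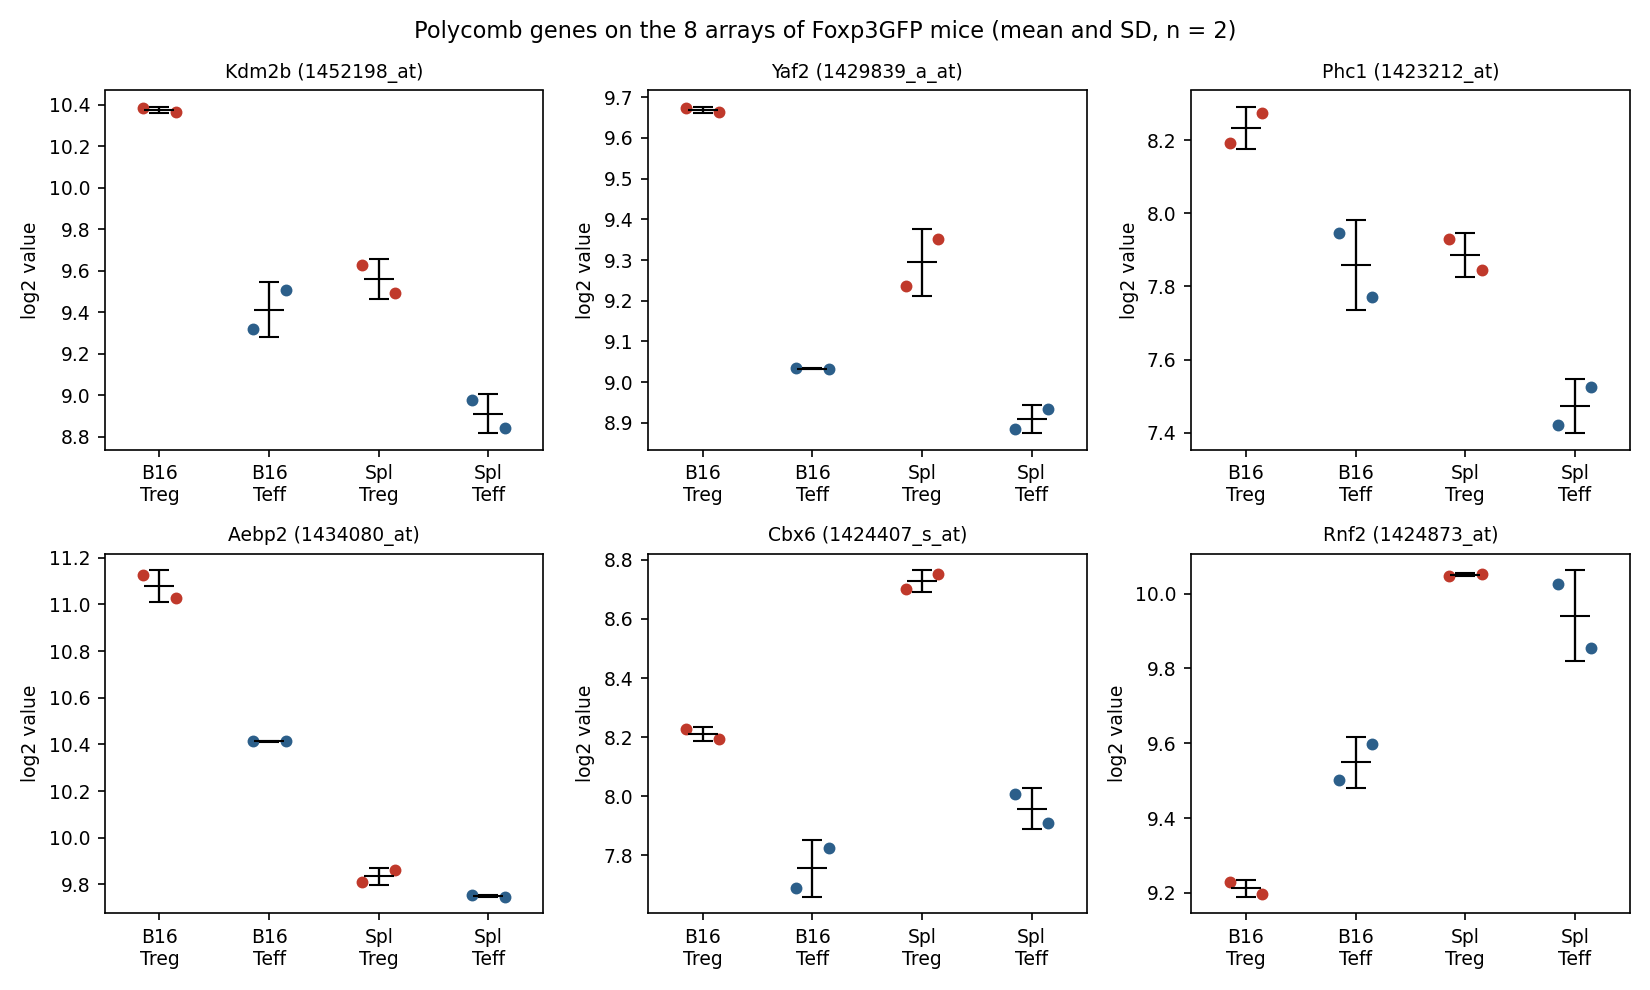
Points are log2 values of 6 members on the 8 arrays of Foxp3GFP mice, with mean and SD of 2 arrays, each panel on its own axis. Kdm2b, Yaf2, Phc1 and Aebp2 are highest in tumour Treg, Rnf2 is lowest there, and Cbx6 is highest in spleen Treg.

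**Figure D4:**
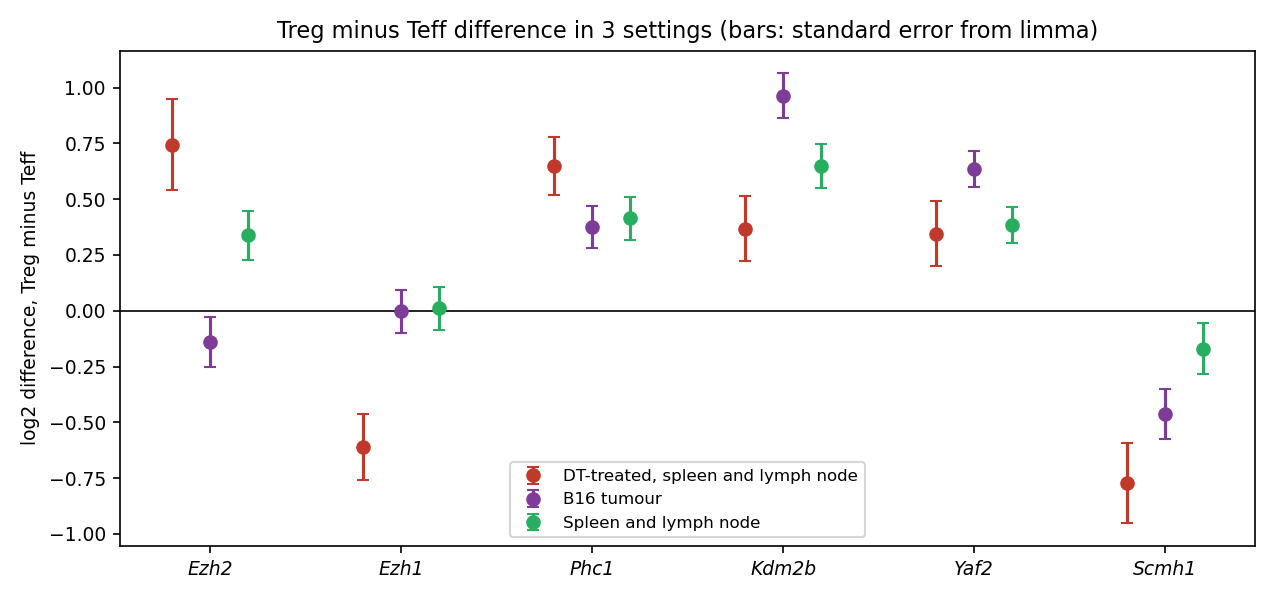
Points are log2 differences of Treg minus Teff for 6 members in DT-treated mice, tumour and spleen with lymph nodes, with the SE from limma as bars. Phc1, Kdm2b and Yaf2 lie above 0 in each setting, Kdm2b and Yaf2 without passing the test in DT-treated mice.

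The H3K27 demethylase Kdm6a was lower in the tumour. It lay at 8.5 on both arrays of tumour Treg, 8.87 and 8.89 in tumour Teff, 9.45 and 9.55 in spleen Treg and 9.56 and 9.78 in spleen Teff. Both tumour groups were below both spleen groups, by -1.0 (SE 0.0961, adjusted p = 0.000205) in Treg and -0.79 (SE 0.0961, adjusted p = 0.00139) in Teff, and both calls held without each array. Within the tumour Treg were below Teff by -0.38 (SE 0.0961, adjusted p = 0.0206), lost without any 1 of the 4 arrays (up to 0.0875). A second probe set gave -1.0, -0.70 and -0.36 in these 3 comparisons, all called over all probe sets.

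Kdm6a lies on the X chromosome and is known to escape X inactivation, and the tumour and spleen arrays also differ in transcripts linked to sex. Xist, made from the inactive X chromosome, lay at 2.45 to 2.62 on the tumour arrays and 10.57 to 11.28 on the spleen arrays, while Ddx3y, of the Y chromosome, lay at 9.91 to 10.32 on the tumour arrays and 2.60 to 2.81 on the spleen arrays. Uty, the Y-linked relative of Kdm6a, lay at 5.81 to 6.25 on the tumour arrays and 3.59 to 4.02 on the spleen arrays. Other X-linked genes known to escape X inactivation did not all move alike. Eif2s3x was lower in the tumour by -0.81 in Treg and -0.59 in Teff (adjusted p = 0.00118 and 0.00891). Kdm5c differed by -0.44 in Treg, which passed, and by -0.38 in Teff, which did not (adjusted p = 0.0219 and 0.0506). Ddx3x did not pass, with -0.26 in Treg and 0.073 in Teff (adjusted p = 0.105 and 0.703). Tumour and sex-linked transcripts split these 8 arrays in the same way, so their parts in Kdm6a and in every other difference between tumour and spleen cannot be told apart. Foxp3 also split the Treg arrays by tissue, at 3.20 and 3.30 in the tumour and 9.99 and 9.95 in spleen. What sets it apart is likewise bound up with tissue in the Treg differences and in their change.

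**Figure D5:**
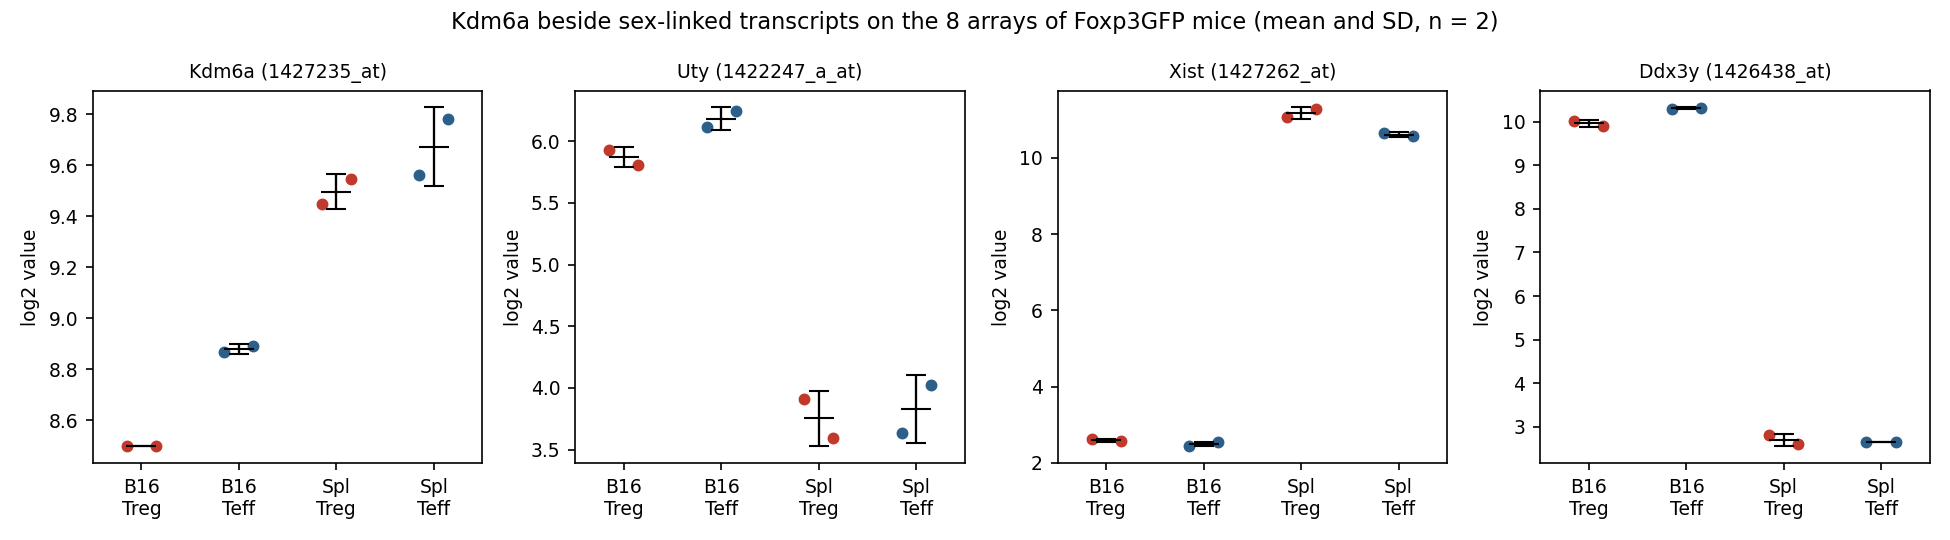
Points are log2 values of Kdm6a, Uty, Xist and Ddx3y on the 8 arrays of Foxp3GFP mice, with mean and SD of 2 arrays, each panel on its own axis. Kdm6a and Xist are lower, and Uty and Ddx3y higher, on all 4 tumour arrays than on all 4 spleen arrays.

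In DT-treated mice neither demethylase passed the test without a replicate block. Kdm6a lay at 7.99, 7.83, 8.07, 7.93 and 7.70 in Treg and at 8.42, 8.17, 7.98, 7.94 and 7.39 in Teff, with a difference of -0.074 (SE 0.165, adjusted p = 0.879, exact permutation p = 0.698). These values are from the second Kdm6a probe set named above, the brightest on these arrays. The probe set used for tumour and spleen lay at 6.90 to 7.33 in Treg and 6.53 to 7.78 in Teff of DT-treated mice. It differed by -0.33 and did not pass. Kdm6b, the inducible demethylase, lay at 8.14, 8.23, 7.87, 7.99 and 8.32 in Treg and at 8.63, 8.70, 8.20, 8.09 and 8.75 in Teff. The groups overlap, with a difference of -0.36 (SE 0.15, adjusted p = 0.177, exact permutation p = 0.0794). With the replicate number as a block Kdm6b passed by limma (adjusted p = 0.0352).

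Transcripts of other cells moved with each comparison. Of 6 melanoma markers 5 were higher in tumour Treg and 5 in tumour Teff than in spleen, with a summed linear level of 1668 to 2311 in tumour Treg and 1173 to 2427 in tumour Teff, against 183 to 189 in spleen Treg and 194 to 199 in spleen Teff, and none passed between Treg and Teff of the tumour. Of 7 stromal and endothelial markers 5 were higher in both tumour groups than in spleen, summed at 429 to 961 in tumour Treg and 725 to 1293 in tumour Teff, against 296 to 316 in spleen Treg and 378 to 386 in spleen Teff.

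The tumour Teff arrays held more transcripts of dendritic and CD8 T cells. Of 7 markers of plasmacytoid dendritic cells 6 were lower in tumour Treg than in tumour Teff, summed at 2349 to 2392 and 6299 to 10767, and 6 were higher in tumour Teff than in spleen Teff, which summed at 1858 to 2016. Both CD8 T cell markers were lower in tumour Treg, summed at 142 to 154, than in tumour Teff, at 342 to 646, and higher in tumour Teff than in spleen Teff, at 141 to 149. Of 12 markers of macrophages and dendritic cells 5 were lower in tumour Treg than in tumour Teff, summed at 1145 to 1738 and 5902 to 10833. Of 5 NK cell markers 2 were lower and 1 higher in tumour Treg than in tumour Teff, summed at 1908 to 2305 and 2580 to 2677. The widest of these differences was that of Klrd1, -5.49, at 4.61 and 5.10 in tumour Treg and 10.56 and 10.11 in tumour Teff.

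Such markers also passed in the other settings. Of 5 NK cell markers 3 were lower in Treg of DT-treated mice, summed at 1575 to 1898 in Treg and 1672 to 2551 in Teff, and 3 were lower in Treg of spleen, summed at 273 to 274 in Treg and 1081 to 1220 in Teff. Markers of plasmacytoid dendritic cells were lower in Treg for 3 of 8 in DT-treated mice, with 1 higher, and for 3 of 7 in spleen. Of the 12 macrophage and dendritic cell markers 2 were higher and 4 lower in Treg of DT-treated mice, and 2 higher and 3 lower in Treg of spleen. The part of these cells in the members' differences was not tested.

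Of the further Polycomb partners, 4.76% of 21 passed in DT-treated mice, where 10.5% of all genes passed, 25% of 16 in the tumour, where 25.5% passed, and 18.8% of 16 in spleen, where 13.8% passed. Asxl1, which serves the enzyme that removes ubiquitin from H2A, was higher in Treg of DT-treated mice, tumour and spleen, by 0.55, 0.58 and 0.72 (adjusted p = 0.00821, 0.00279 and 0.00162). The value in DT-treated mice came from another probe set than those in tumour and spleen. Asxl1 was the 1 of 21 further partners that rose in DT-treated mice, with 0 lower. Sfmbt2, a Polycomb protein that binds methylated histones, rose in Treg of the tumour by 0.61 and fell in Treg of spleen, at -1.06 (adjusted p = 0.0137 and 0.00161), and the change of its difference was 1.67 (adjusted p = 0.00307). In these tissues 2 of 16 partners rose and 2 fell, and 1 rose and 2 fell. Of the Trithorax and COMPASS genes, whose products oppose Polycomb, 0 of 18 passed in DT-treated mice and 0 of 15 in spleen by limma, with 6 and 2 at an unadjusted p under 0.05, and 2 of 15 fell in tumour Treg, Kmt2c at -0.72 and Ash1l at -0.32 (adjusted p = 0.00196 and 0.0428), or 13.3% where 25.5% of all genes passed.

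Of 20 genes known as Polycomb targets, 2 rose and 4 fell in Treg of DT-treated mice, 3 rose and 5 fell in the tumour and 1 rose and 7 fell in spleen. These are 30%, 40% and 40% of the list, where 10.5%, 25.5% and 13.8% of all genes passed. The Treg difference changed between tumour and spleen for 5 of the 20, each upward, or 25%, where 5.8% of all genes passed. The list was chosen with earlier results of these data known, so these shares are not a test of Polycomb. Il4, a helper cell cytokine, differed by -3.72 in DT-treated mice, -0.71 in the tumour and -2.32 in spleen (adjusted p = 2.79e-08, 0.0119 and 5.28e-05). In the tumour Il4 was dim, at 3.13 and 3.18 in Treg and 3.61 and 4.13 in Teff, below the medians of these arrays. Eomes, a factor of cytotoxic and memory cells, differed by -1.58, -2.04 and -2.13 in DT-treated mice, tumour and spleen (adjusted p = 2.28e-05, 0.000169 and 0.000229). It is also among the NK cell markers counted above. Cdkn1a, an inhibitor of the cell cycle, rose in Treg of DT-treated mice by 0.78 and of the tumour by 1.14 (adjusted p = 0.00518 and 0.000162). Histone marks were not measured.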

How the data were processed

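Total RNA was hybridised to Affymetrix arrays. The deposited log2 values were made by the authors with RMA, per the submitters' processing notes, in 1 table of 10 arrays (45101 probe sets) and 1 of 8 (22690). Another deposited table has 21 value columns, of which 5 equal DT Treg arrays to within 5e-09 and 16 could not be matched to a sample and stayed out. Gene names come from the deposited gene columns, updated through RefSeq (GRCm38.p6). A gene was represented by its probe set of highest mean. Values on every array are given for at most the 8 members of largest difference among those that passed in a comparison, and for Ezh1, Ezh2, Kdm6a and Kdm6b.

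Tests used limma 3.58.1 (lmFit, eBayes; R 4.3.3), Benjamini-Hochberg adjusted over all genes. DT groups were fitted alone and the other 4 groups together. The code was tested on simulated data. The precision is limited by 5 or 2 arrays a group. The members and lists were chosen with earlier results of these data known. Alternatives were other probe set rules, a filter on dim genes, trend and robust eBayes, median centring, a replicate block, fits of 2 groups and leaving out arrays. Whether same-numbered arrays deviate together was checked.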

Additional observations from a re-analysis of the deposited data

Results flagged for a closer look

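In 4 of 64 groups of 5 arrays of the members in DT-treated mice, 1 array lay apart from the others by Dixon's criterion, where chance gives about 5% of groups. These were Bmi1 at 7.87 on Teff array 5, Pcgf2 at 2.84 on Treg array 1, and Cbx6 at 6.95 on Treg array 4 and at 8.37 on Teff array 4. The Treg difference of Aebp2 changed between tumour and spleen, by 0.58 (SE 0.113, adjusted p = 0.0236 by limma). Rnf2 was lower in Treg than in Teff on both tumour arrays, at -0.34, and higher on both spleen arrays, at 0.11, and the test of the change gave -0.45 (SE 0.127, adjusted p = 0.0913), which did not pass.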

How the results depend on the processing

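Of 43 differences of members that passed, 15 kept their call under every alternative, 27 lost it under at least 1 and 2, of which Cbx7 is among the 27, reversed. The alternatives did not try all members equally. On the 8 arrays the fit on probe sets shared by both arrays was the main fit again. Phc1 and Cbx6, and Kdm2b on the smaller array, have 1 probe set, so averaging probe sets could not change their differences. Kept throughout were Phc1 and Scmh1 in DT-treated mice (Scmh1 was not tested under the filter on dim genes), Cbx6, Yaf2 and Kdm2b in Treg of the tumour, Cbx6 and Kdm2b in Treg of spleen, Mtf2, Aebp2, Rnf2, Cbx6, Kdm2b and Kdm6a in Treg of tumour against spleen, and Aebp2 and Kdm6a in Teff of tumour against spleen. Reversed were Cbx7 in DT-treated mice, 0.36 on probe sets shared by both arrays, and Aebp2 in the tumour, -0.070 with the mean of probe sets. Members that passed in DT-treated mice numbered 3 with the mean of probe sets and 8 (of 3644 genes, 4 members shared) without Treg array 4 and Teff arrays 4 and 5. In Teff of tumour against spleen they numbered 5 with these 2 groups alone. For the change of the Treg difference they numbered 0 with the mean of probe sets, 3 with the filter on dim genes and 4 (of 1162 genes) with trend and robust eBayes. Without single arrays they numbered 2 to 7 in DT-treated mice (1580 to 3048 genes), 5 to 7 in the tumour (2308 to 2650), 2 to 3 in spleen (969 to 1257), 7 to 9 in Treg (2010 to 2371) and 4 to 6 in Teff (970 to 1479) of tumour against spleen, and 0 to 1 for the change (355 to 742). Fits that leave a group 1 array assume that it varies like the others.

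Uncalled differences near 0 changed sign. Ezh1 gave -0.16, -0.12 and 0.13 with the mean of probe sets for spleen, Teff of tumour against spleen and the change, and 0.016, -0.0052 and 0.011 after median centring for the tumour, Teff and the change. Without single arrays it gave -0.024 to 0.045 in spleen, -0.12 to 0.11 in the tumour, -0.014 to 0.039 in Treg and -0.090 to 0.14 in Teff of tumour against spleen, and -0.13 to 0.10 for the change. Ezh2 in the tumour gave -0.29 to 0.012 and Kdm6a in DT-treated mice -0.22 to 0.038. The causes were not tested.

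Same-numbered Treg and Teff arrays of DT-treated mice correlated at 0.040 to 0.50, all above 0, and 3 of 5 correlated best with their own number. Whether the numbers pair these arrays could not be settled, and the main fit did not pair them. If they do, that fit leaves shared spread in the error, and its calls are the more fragile for it. The correlations were 0.19 in the tumour, 0.024 in spleen, and -0.025 and -0.078 between tumour and spleen. With the replicate number as a block 7 members and 3242 genes passed in DT-treated mice, where Kdm6b (-0.36, adjusted p = 0.0352) and Phc2 (-0.62, adjusted p = 0.0203) gained a call, 11 and 3198 in the tumour, 5 and 1695 in spleen, 11 and 2938 in Treg and 7 and 1860 in Teff of tumour against spleen, and 1 and 698 for the change.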
